A study of Mus musculus with 49 samples.

Results

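Bone marrow cells associated with iron oxide nanoparticles were compared with bulk bone marrow of the same mice. The comparison uses 6 of the 49 libraries of the series: nanoparticle-associated cells and bulk marrow of 3 mice, paired by the mouse number that both labels carry, and it covers all genes. Every mouse was HuHER2 transgenic and tumor-bearing, the PBS controls included, and the animals were palpated for tumors from 7 months of age. The promoter of the transgene was not given in the sources used here. The 3 mice compared received 1 intravenous injection of BP, an iron oxide nanoparticle known here by this code only, at 5 mg Fe per mouse, and 3 control mice received PBS. The series' design text places collection at day 7, while a treatment protocol label names 31 days.

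Each organ was split. RNA of the bulk library came from the section kept whole, whereas the other section was digested to single cells and separated on a magnet before RNA was taken. The nanoparticle-associated libraries therefore differ from bulk marrow in digestion and magnetic handling as well as in nanoparticle content, and these cannot be told apart. Digested marrow without separation, and the cells that the magnet did not retain, were not analysed here. Fewer cells of a type and less RNA per cell also cannot be told apart in such samples. Bulk marrow of the PBS mice is given beside the main values as the level without nanoparticles.

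Marrow is the site of blood formation, and most of its cells are granulocytes, red cell precursors and developing B cells. Its resident macrophages sit at the center of erythroblastic islands, engulf expelled nuclei and particles and recycle heme iron, while leptin receptor-positive stromal cells and sinusoidal endothelium form the niche of stem cells. Immediate early genes encode transcription factors and feedback regulators whose transcripts appear within minutes of a stimulus, and enzymatic dissociation of tissue is a known stimulus for them.

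Fosb and Nr4a3 had the largest rises by the naming rule, Nr4a1 and Chac1 were also among its 12 largest, and Cxcl2 had the largest rise of the chemokine genes. The 250 bases before a start are shown because these genes moved together. Where a gene has several annotated starts, the window with the most matches to the motifs marked was chosen, so the matches shown are the most found. For Nr4a1 this window lies within the annotated gene (chr15:101254269-101274795), not before its first base. The sequences are from RefSeq (GRCm38.p6), 5′ to 3′ on the gene's strand. Capitals mark TGACG on either strand in Fosb, Nr4a3, Nr4a1 and Chac1. TGACG is the core of the cyclic AMP response element bound by CREB and ATF factors, and it reads CGTCA where it lies on the other strand. In Cxcl2 the capitals mark overlapping matches to the NF-kB site, and in Chac1 also TGATGNAA on either strand, the composite element of C/EBP and ATF factors.
Fosb, chr7:19310046-19310295, minus strand: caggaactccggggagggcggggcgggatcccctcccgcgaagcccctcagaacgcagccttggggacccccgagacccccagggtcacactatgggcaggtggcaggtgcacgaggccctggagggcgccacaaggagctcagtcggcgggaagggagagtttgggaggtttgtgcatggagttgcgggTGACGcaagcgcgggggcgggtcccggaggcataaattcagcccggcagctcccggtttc
Nr4a3, chr4:48045055-48045304, plus strand: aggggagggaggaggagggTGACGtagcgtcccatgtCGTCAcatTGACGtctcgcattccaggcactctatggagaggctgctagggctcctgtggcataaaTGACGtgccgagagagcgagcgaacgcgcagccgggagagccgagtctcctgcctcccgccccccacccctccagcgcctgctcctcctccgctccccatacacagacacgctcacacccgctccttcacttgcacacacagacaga
Nr4a1, chr15:101266596-101266845, plus strand: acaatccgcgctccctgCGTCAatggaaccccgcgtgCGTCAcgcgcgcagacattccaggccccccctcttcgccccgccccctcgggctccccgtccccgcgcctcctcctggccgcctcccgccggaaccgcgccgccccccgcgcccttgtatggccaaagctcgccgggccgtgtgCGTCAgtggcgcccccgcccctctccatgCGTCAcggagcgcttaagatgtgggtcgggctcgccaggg
Cxcl2, chr5:90903649-90903898, plus strand: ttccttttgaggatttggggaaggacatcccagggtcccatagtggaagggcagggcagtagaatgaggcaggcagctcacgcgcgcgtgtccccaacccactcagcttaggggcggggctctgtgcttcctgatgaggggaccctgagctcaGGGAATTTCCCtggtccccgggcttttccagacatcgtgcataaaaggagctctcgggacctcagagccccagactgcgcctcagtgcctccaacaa
Chac1, chr2:119350992-119351241, plus strand: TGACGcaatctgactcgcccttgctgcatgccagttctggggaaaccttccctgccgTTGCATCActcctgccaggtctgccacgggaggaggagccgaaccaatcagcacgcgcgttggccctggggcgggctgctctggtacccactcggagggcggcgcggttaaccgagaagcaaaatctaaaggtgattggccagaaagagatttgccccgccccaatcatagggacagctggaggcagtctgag

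Of 27025 genes with such a window, 19.8% held TGACG, 4.46% the NF-kB site and 3.91% TGATGNAA. A gene with several windows was counted if any of them held the motif. Among the 10054 tested genes with a window the shares were 30.2%, 5.29% and 2.42%. Among the 1243 that rose they were 40.3%, 7.96% and 3.22%, and among the 868 that fell 23.6%, 3.57% and 1.96%. Of the 59 genes with a window that rose at least 4-fold, 26 held TGACG and 14 the NF-kB site. Of 27 immediate early genes with a window, 15 held TGACG. The AP-1 motif TGANTCA and the CArG box of serum response factor, also searched on both strands, were held by 5.79% and 1.37% of genes that rose. They were held by 5.67% and 1.43% of tested genes and by 7.82% and 1.62% of all genes with a window. Neither was in any of the 9 windows of the 12 genes with the largest rise. These are matches of letters, described only.

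The libraries held 10410280 to 12826767 expected counts in nanoparticle-associated cells and 11289685 to 14764707 in bulk marrow. Expected counts are RSEM's estimates of reads per gene. Levels are given in CPM, counts scaled by library total. With no read in a library, a gene's level there may still reach 0.20 to 0.29 CPM, the equivalent of 3 counts. This limit and the count intervals given below cover counting error only. Hemoglobin genes held 8.503, 10.8 and 12.5% of counts in nanoparticle-associated cells of mice 1, 2 and 3, against 13.7, 15.1 and 19.5% in their bulk marrow. The share was lower in 3 of 3 pairs, and the exact two-sided permutation test within pairs gave p = 0.25, the smallest that 3 pairs allow. Traces of other organs differed by library: the skeletal muscle list summed to 812 CPM in nanoparticle-associated cells of mouse 1 and to at most 55.7 CPM in the other 5. With all 3 mice no muscle, hepatocyte or lung epithelium gene was called, whereas without mouse 1 11 of 11 muscle genes and 8 of 11 lung epithelium genes were lower in nanoparticle-associated cells. The lung list summed to 226, 100.1 and 118 CPM in these cells against 153, 177 and 256 CPM. The part of these traces in the results was not tested.

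Against bulk marrow, 2719 of 13573 tested genes (20.0%) changed at an adjusted p under 0.05, by edgeR's quasi-likelihood test with mouse as a block and Benjamini-Hochberg adjustment. Of these 1594 (11.7%) rose and 1125 (8.29%) fell. Most changes were small, with a median size of 0.55 on the log2 scale among called genes. At least 4-fold changes were seen for 92 genes that rose and 30 that fell. The 12 genes with the largest rises encode immediate early factors and inflammatory or stress proteins. The 12 with the largest falls include stromal secreted factors, the lymphocyte receptor gene Klrk1, Tlr1 and Trim21. The rule that named these 24 required the same direction in 3 mice and no overlap between the groups, so their separation is given as a description. Among all 13573 tested genes the groups did not overlap for 4144, and among the 2719 called genes for 2263. Statements of no overlap for a gene below stand against these counts. Counts of list members below stand against the 11.7% and 8.29% of all tested genes. A gene was tested if it passed a filter on low counts, which either group alone can satisfy. Fosb, Nr4a3, Cxcl2, Ccl2, Ptgs2, Il10 and Ifng passed through nanoparticle-associated cells, with at most 10 counts in any bulk library. Without the mouse term 1044 genes were called (7.69%), with 651 (4.8%) higher and 393 (2.9%) lower. Without mouse 1 there were 3567 of 13606 tested genes, 1977 higher and 1590 lower. There were 555 of 13676 without mouse 2 (406 and 149), and 1240 of 13810 without mouse 3 (796 and 444). With PBS marrow as the reference 1304 (9.41%) were called, 757 (5.46%) higher and 547 (3.95%) lower. List counts given below for one of these settings stand against that setting's totals over all genes.

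**Figure D1:**
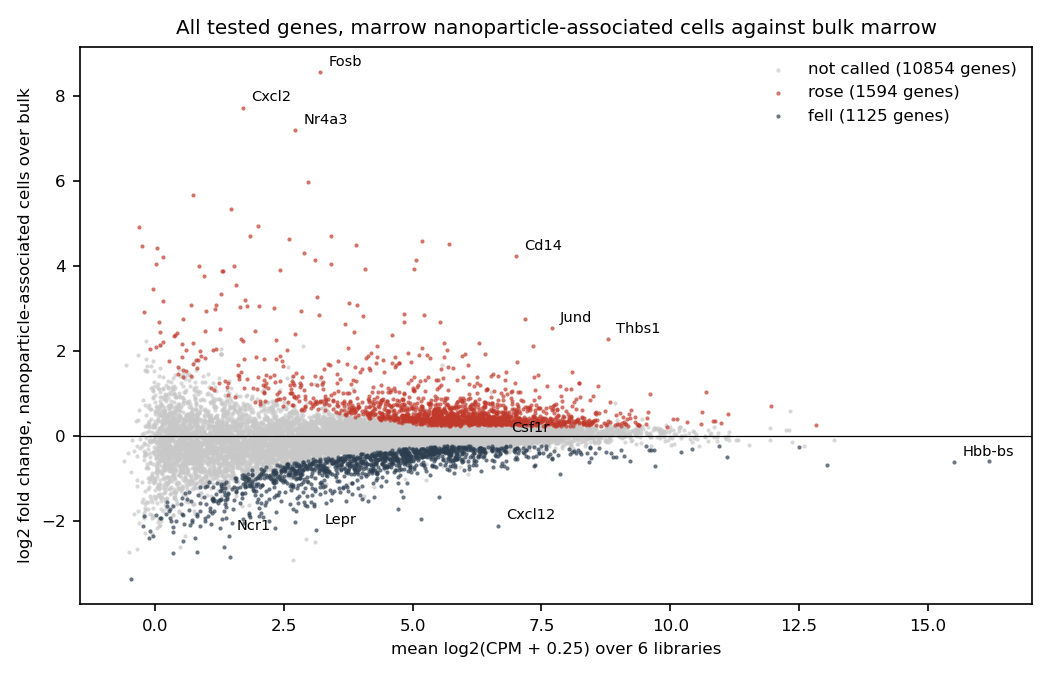
Log2 fold change of nanoparticle-associated cells over bulk marrow (vertical axis) against mean log2(CPM + 0.25) over the 6 libraries (horizontal axis) for each tested gene; red points rose, dark points fell and grey points were not called. The largest changes lie above the line, led by Fosb and Cxcl2, while the macrophage receptor gene Csf1r lies near 0.

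AP-1 genes were among the largest rises. Fosb, a FOS family subunit of AP-1, stood at 123, 157 and 147 CPM against 0.17, 0.47 and 0.46 CPM in bulk marrow of the same mice, in the order of mice 1, 2 and 3 used throughout. The bulk values rest on 14 counts in all, so the ratio of summed counts per total was 381 with an exact 95% interval of 227 to 697. The fitted log2 fold change was 8.56 ± 0.15 (SE, adjusted p = 9.21e-06), higher in 3 of 3 mice, and PBS marrow held 0.13 to 0.91 CPM. Fos itself stood at 171, 186 and 170.1 CPM against 4.81, 6.903 and 10.97 CPM, a log2 change of 4.58 ± 0.21, adjusted p = 2.03e-04. Jun, the partner subunit, stood at 142, 133 and 137 CPM against 8.36, 6.702 and 8.41 CPM (4.14 ± 0.09, adjusted p = 1.84e-05). Junb and Jund, its relatives, rose by 2.75 ± 0.08 and 2.53 ± 0.10.

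The NR4A orphan nuclear receptors rose in all 3 members. Nr4a3 stood at 98.4, 62.4 and 42.3 CPM against 0.76, 0.34 and 0.27 CPM (7.20 ± 0.14, adjusted p = 9.21e-06). Its bulk values rest on 17 counts, and the ratio of summed counts was 156 with an exact 95% interval of 97.5 to 269. Nr4a2 stood at 74.2, 55.6 and 41.9 CPM against 0.59, 0.80 and 1.28 CPM (5.98 ± 0.27, adjusted p = 2.02e-04). Nr4a1, the member best known from patrolling monocytes and activated lymphocytes, stood at 311, 223 and 219 CPM against 9.37, 12.3 and 10.4 CPM (4.52 ± 0.17, adjusted p = 1.42e-04), with 7.98 to 11.8 CPM in PBS marrow. Egr1, a zinc finger factor of the early response, was at 64.4 to 76.6 CPM against 1.74 to 4.48 CPM (4.48 ± 0.20, adjusted p = 2.02e-04).

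Over the whole immediate early list, 30 of 32 members rose, against 11.7% of all tested genes, and Myc fell (-0.48 ± 0.08, adjusted p = 0.0108). The median log2 fold change of the list was 2.32, against -0.01 over all tested genes. Btg2, an antiproliferative early gene, was the member not called (0.34 ± 0.09, adjusted p = 0.0531). The list summed to 3758 to 4419.9 CPM in nanoparticle-associated cells, 1086 to 1312 CPM in their bulk marrow and 1134 to 1257 CPM in PBS marrow, and the groups of libraries did not overlap. It was assembled as the known response to tissue dissociation, and the part of digestion in its level here was not tested. Calls were lost (adjusted p in brackets) without the mouse term for Myc (0.0576), without mouse 2 for Myc (0.058) and against PBS marrow for Myc (0.263). With the log2 value and adjusted p in brackets, the threshold was passed by Btg2 without mouse 3 (0.43, 0.0488).

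**Figure D2:**
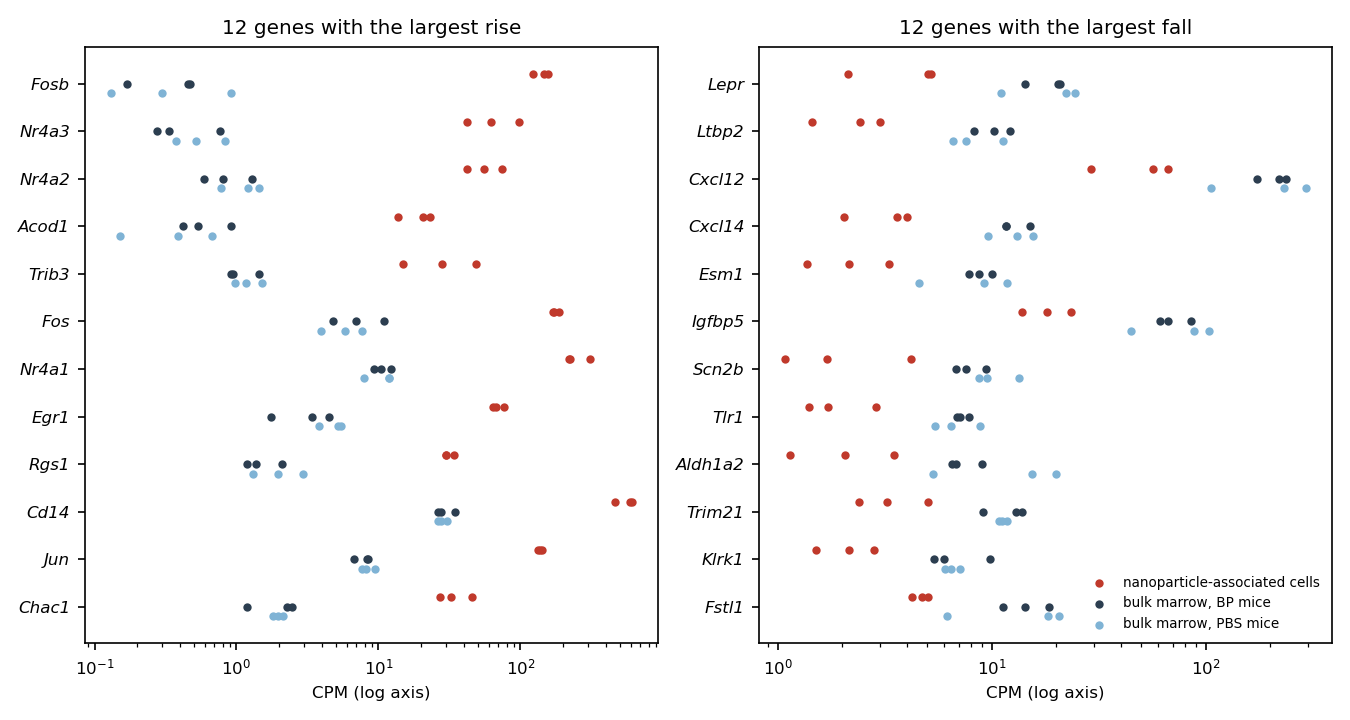
CPM on a log axis of the 12 genes with the largest rise (left) and the 12 with the largest fall (right); each point is a library of nanoparticle-associated cells (red), bulk marrow of the same BP mice (dark) or bulk marrow of PBS mice (light blue), 3 of each. The choice of genes required the red and dark points to lie apart. The light blue points, which it did not use, all lie beyond the red points in the direction of the dark ones. Those at 6.18 CPM for Fstl1, 4.55 CPM for Esm1 and 106.1 CPM for Cxcl12, from the same PBS mouse, lie nearer to a red point than to a dark one.

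Genes of inflammatory mediators were higher as well. Of 35 listed chemokine, cytokine and related genes 26 passed the filter on low counts, of which 17 rose and 1 fell. Cxcl2, Ccl2, Ptgs2 and Il10 passed it through nanoparticle-associated cells alone, so they were counted only because they were high there. With no filter on low counts 19 members rose and 1 fell, where 1753 of 24487 genes rose and 1344 fell. Cxcl2, a neutrophil-attracting chemokine, stood at 22.3, 36.1 and 29.7 CPM against 0, 0.20 and 0.18 CPM, and its 5 bulk counts give a ratio of 219 (exact 95% interval 93.3 to 675; log2 fold change 7.73 ± 0.33, adjusted p = 2.02e-04). Ccl2, which recruits monocytes, stood at 9.87, 5.404 and 7.103 CPM against 0.0844, 0.20 and 0.0914 CPM, with 5 bulk counts and a ratio of 57.5 (24.3 to 179). Ptgs2, the inducible cyclooxygenase, stood at 17.1, 14.8 and 11.1 CPM against 0.25, 0.67 and 0.0914 CPM, with 14 bulk counts and a ratio of 39.4 (23.2 to 72.5). Every nanoparticle-associated library was above every bulk library for these genes, as passing the filter through nanoparticle-associated cells alone made likely.

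The other cytokine genes named here rose too, except Ccl5. Il1b, the fever cytokine made by myeloid cells, stood at 98.1, 109 and 98.2 CPM against 35.6, 48.2 and 33.6 CPM (1.38 ± 0.09, adjusted p = 5.15e-04), and the groups did not overlap. Osm, an interleukin 6 family cytokine, rose by 1.63 ± 0.10, the macrophage chemokine gene Ccl3 by 3.90 ± 0.18 and Tnf by 1.24 ± 0.16. Il6 rose by 3.33 ± 0.49 and Il10, an anti-inflammatory cytokine, by 4.21 ± 0.62, the latter on 6 bulk counts (ratio 18.6, exact 95% interval 8.23 to 51.7). Ccl5, a chemokine of T and natural killer cells, was the member that fell, at 8.42, 6.94 and 6.603 CPM against 12.3, 12.7 and 10.6 CPM (-0.71 ± 0.15, adjusted p = 0.0232). No call was made (adjusted p in brackets) without mouse 2 for Il10 (0.058) and Ccl5 (0.156), without mouse 3 for Ccl5 (0.0623) and against PBS marrow for Tnf (0.0571).

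The remaining genes among the 12 largest rises have other roles. Cd14, the lipopolysaccharide co-receptor of monocytes, macrophages and neutrophils, stood at 467, 593 and 609 CPM against 27.4, 26.4 and 34.6 CPM, with 26.5 to 30.5 CPM in PBS marrow (4.24 ± 0.11, adjusted p = 2.92e-05). Acod1, which makes itaconate in activated myeloid cells, was at 13.7 to 23.2 CPM against 0.42 to 0.91 CPM (4.95 ± 0.24, adjusted p = 2.23e-04). Trib3 and Chac1 are targets of the stress factor ATF4, and they rose by 4.64 ± 0.40 and 4.13 ± 0.16. Rgs1, a brake on chemokine receptor signaling, rose by 4.31 ± 0.20. All 12 genes were also called higher under each alternative setting that was run, PBS marrow as the reference included. Every setting reuses nanoparticle-associated libraries of these mice, so the settings are not independent. Of the 12 largest falls 9 were called without mouse 2 and 9 with the spread of 24 libraries, where Scn2b (adjusted p = 0.16), Klrk1 (0.0543) and Fstl1 (0.175) were not.

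Mature neutrophil genes moved in both directions. Of 23 tested mature neutrophil genes 12 rose and 3 fell, with a median of 0.30. The list shares Cxcl2, Il1b, Ptgs2 and Csf1 with the chemokine and cytokine list, and Cxcl2 also with the immediate early list. Calls of these genes are therefore counted more than once. Il1r2, the decoy receptor of interleukin 1, stood at 107, 138 and 136 CPM against 10.4, 6.63 and 7.77 CPM (3.94 ± 0.19, adjusted p = 2.23e-04). Trem1, an amplifying receptor of inflammation, stood at 147, 203 and 158 CPM against 32.8, 32.97 and 45.4 CPM (2.19 ± 0.16, adjusted p = 8.20e-04). For both the groups did not overlap. The C-type lectin receptor genes Clec4e and Clec4d rose by 1.87 ± 0.11 and 1.59 ± 0.07. The chemokine receptor Cxcr2 (-0.15 ± 0.07, adjusted p = 0.173) and the growth factor receptor Csf3r (-0.14 ± 0.10, adjusted p = 0.365), which define the lineage, were not called with all 3 mice. Members that fell include S100a8, a calcium-binding protein of the cytosol (-0.26 ± 0.05), and Ly6g, the surface antigen of mouse neutrophils (-0.33 ± 0.09). The threshold was missed (adjusted p in brackets) without the mouse term for S100a8 (0.191) and Ly6g (0.289), without mouse 2 for S100a8 (0.173) and Ly6g (0.227), without mouse 3 for S100a8 (0.129) and Ly6g (0.169) and against PBS marrow for S100a8 (0.144) and Ly6g (0.0859). With the log2 value and adjusted p in brackets, the threshold was passed by Cxcr2 without mouse 1 (-0.21, 0.0377) and Csf3r without mouse 1 (-0.29, 0.0068). Higher and lower mature neutrophil genes numbered 10 and 0 without the mouse term, 12 and 6 without mouse 1, 9 and 0 without mouse 2, 11 and 0 without mouse 3 and 9 and 0 against PBS marrow.

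Granule protein genes moved less. Of 13 primary granule and progenitor genes 4 rose and none fell. Mpo, the myeloperoxidase of promyelocytes, stood at 2693, 2602 and 2683 CPM against 1955, 1948 and 1722 CPM (0.50 ± 0.06, adjusted p = 0.00489), without overlap. Hdc, the histamine-making enzyme, and Srgn, the granule proteoglycan, rose by 1.42 ± 0.07 and 0.93 ± 0.08. Of 19 secondary and tertiary granule genes 2 rose and 1 fell, and neither lactoferrin (Ltf, 0.13 ± 0.06, adjusted p = 0.176) nor cathelicidin (Camp, 0.00 ± 0.06, adjusted p = 0.983) was called. Adjusted p-values rose to those in brackets without mouse 2 for Mpo (0.0528). Higher and lower primary granule genes numbered 3 and 0 without the mouse term, 9 and 0 without mouse 1, 2 and 0 without mouse 2, 3 and 0 without mouse 3 and 3 and 0 against PBS marrow. Higher and lower later granule genes numbered 0 and 0 without the mouse term, 2 and 4 without mouse 1, 0 and 0 without mouse 2, 0 and 0 without mouse 3 and 0 and 0 against PBS marrow.

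**Figure D3:**
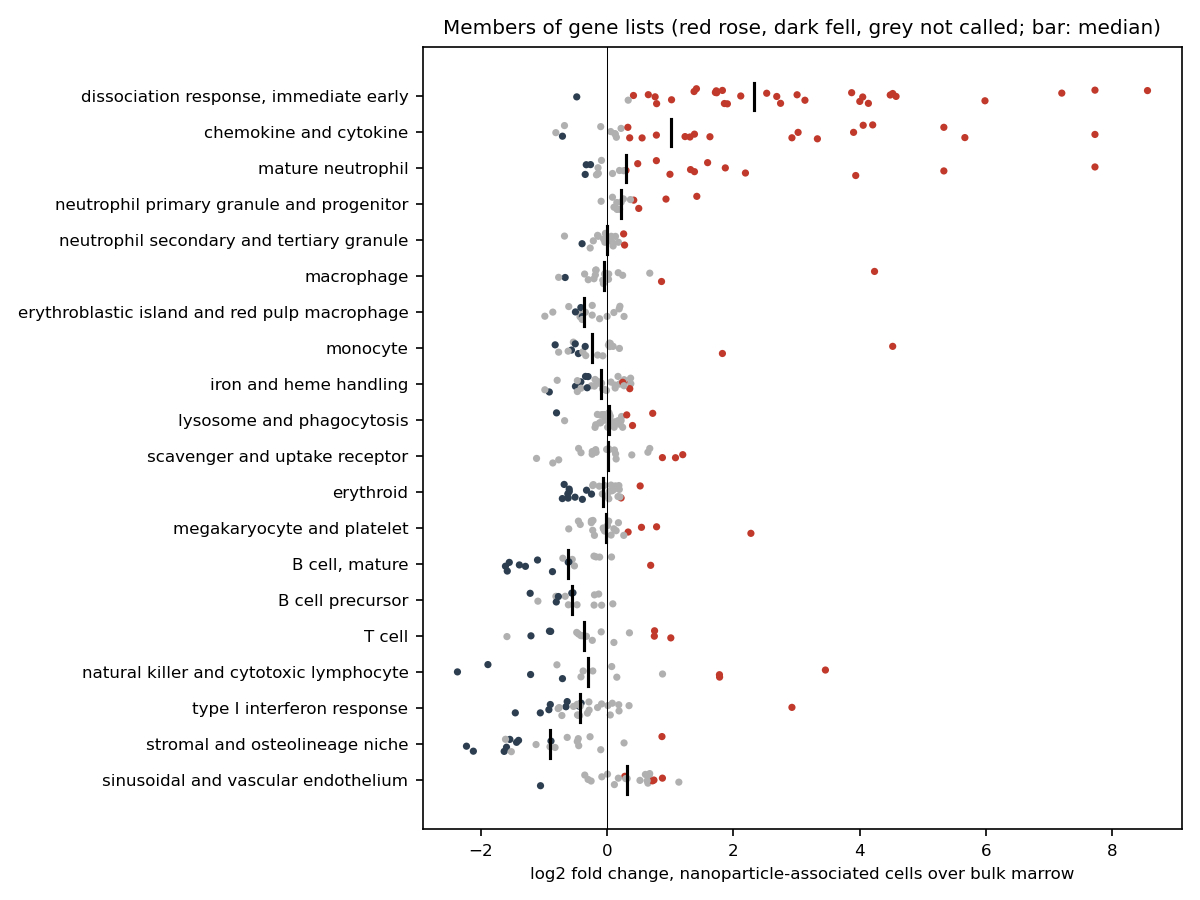
Log2 fold change of nanoparticle-associated cells over bulk marrow for the members of 20 gene lists that passed the filter on low counts; each point is a gene (red rose, dark fell, grey not called) and each bar is the list's median. The median of the immediate early list is 2.32, that of the macrophage list -0.05 and that of the stromal list -0.90.

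Macrophage genes stood close to their bulk level. Csf1r, the growth factor receptor of the lineage, was at 127, 98.6 and 91.5 CPM against 113, 115 and 100.5 CPM (-0.07 ± 0.09, adjusted p = 0.644). Adgre1, which encodes F4/80, was at 28.2, 27.2 and 22.3 CPM against 25.5, 27.6 and 23.04 CPM (0.02 ± 0.09, adjusted p = 0.881). For both genes the libraries of the 2 fractions overlapped. Of 20 macrophage genes 2 rose and 1 fell, with a median of -0.05. Cd14, described above, was among those that rose. Aif1, a cytoskeletal protein of macrophages, fell (-0.66 ± 0.18, adjusted p = 0.0478). The list summed to 2141 to 2467 CPM in nanoparticle-associated cells and 1698 to 1819 CPM in bulk marrow, Cd14 included. Calls were lost (adjusted p in brackets) without the mouse term for Aif1 (0.0744), without mouse 1 for Aif1 (0.136), without mouse 2 for Aif1 (0.216), without mouse 3 for Aif1 (0.0836) and against PBS marrow for Aif1 (0.116).

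None of the 18 tested genes of erythroblastic island and red pulp macrophages rose, and 3 fell, with a median of -0.37. The list shares Klf1 and Epor with the erythroid list, and Slc40a1, Hmox1, Spic and Cd163 with the iron and heme list. Vcam1, the adhesion molecule of island macrophages, was at 185, 153 and 153 CPM against 136, 128 and 140.1 CPM (0.27 ± 0.08, adjusted p = 0.0634). Siglec1, their sialic acid receptor, was at 7.13, 4.32 and 3.902 CPM against 7.18, 9.52 and 4.21 CPM (-0.43 ± 0.26, adjusted p = 0.298), and Spic, the heme-induced factor of iron-recycling macrophages, was at 7.13, 2.61 and 4.602 CPM against 8.698, 8.44 and 9.599 CPM (-0.98 ± 0.28, adjusted p = 0.0539). In Spic and Siglec1 mouse 2 had the largest deficit of the 3 mice. Slc40a1, the iron exporter ferroportin, stood at 142, 145 and 121 CPM against 194, 194 and 187 CPM (-0.50 ± 0.07, adjusted p = 0.00827), without overlap. Hmox1, the heme-degrading oxygenase, stood at 125, 95.8 and 123 CPM against 174, 121 and 165 CPM (-0.41 ± 0.07, adjusted p = 0.0123), lower in 3 of 3 mice although the groups overlapped. No call was made (adjusted p in brackets) without the mouse term for Hmox1 (0.163), without mouse 2 for Slc40a1 (0.0554) and Hmox1 (0.0756), without mouse 3 for Hmox1 (0.0512) and against PBS marrow for Slc40a1 (0.0523) and Hmox1 (0.377). With the log2 value and adjusted p in brackets, the threshold was passed by Spic without mouse 1 (-1.36, 0.00783). Higher and lower island and red pulp macrophage genes numbered 0 and 1 without the mouse term, 1 and 5 without mouse 1, 0 and 0 without mouse 2, 0 and 1 without mouse 3 and 0 and 0 against PBS marrow.

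Changes of iron and heme handling genes were small. Of 35 tested 3 rose and 6 fell (8.57% and 17.1%, against 11.7% and 8.29% of all tested genes), with a median of -0.10. Slc40a1 and Hmox1, already counted among the island macrophage genes, are among the 6 that fell. Fth1, the ferritin heavy chain that oxidizes iron for storage, stood at 1349.7, 1794 and 2056 CPM against 1149, 1434 and 1701 CPM (0.27 ± 0.06, adjusted p = 0.0208), higher in 3 of 3 mice while the groups overlapped. Ftl1, the light chain, was not called (-0.11 ± 0.06, adjusted p = 0.236). Pcbp2, an iron chaperone, rose by 0.36 ± 0.06. Ncoa4, the receptor for ferritin breakdown (-0.34 ± 0.07), and Steap4, a metalloreductase (-0.91 ± 0.19), fell. The threshold was missed (adjusted p in brackets) without the mouse term for Fth1 (0.441), Pcbp2 (0.127) and Ncoa4 (0.0763), without mouse 2 for Fth1 (0.256), Pcbp2 (0.124), Ncoa4 (0.0928) and Steap4 (0.0692), without mouse 3 for Fth1 (0.151), Pcbp2 (0.0609), Ncoa4 (0.118) and Steap4 (0.0596) and against PBS marrow for Fth1 (0.252), Pcbp2 (0.0551) and Ncoa4 (0.28). Higher and lower iron and heme genes numbered 0 and 2 without the mouse term, 6 and 7 without mouse 1, 0 and 0 without mouse 2, 0 and 1 without mouse 3 and 0 and 1 against PBS marrow.

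**Figure D4:**
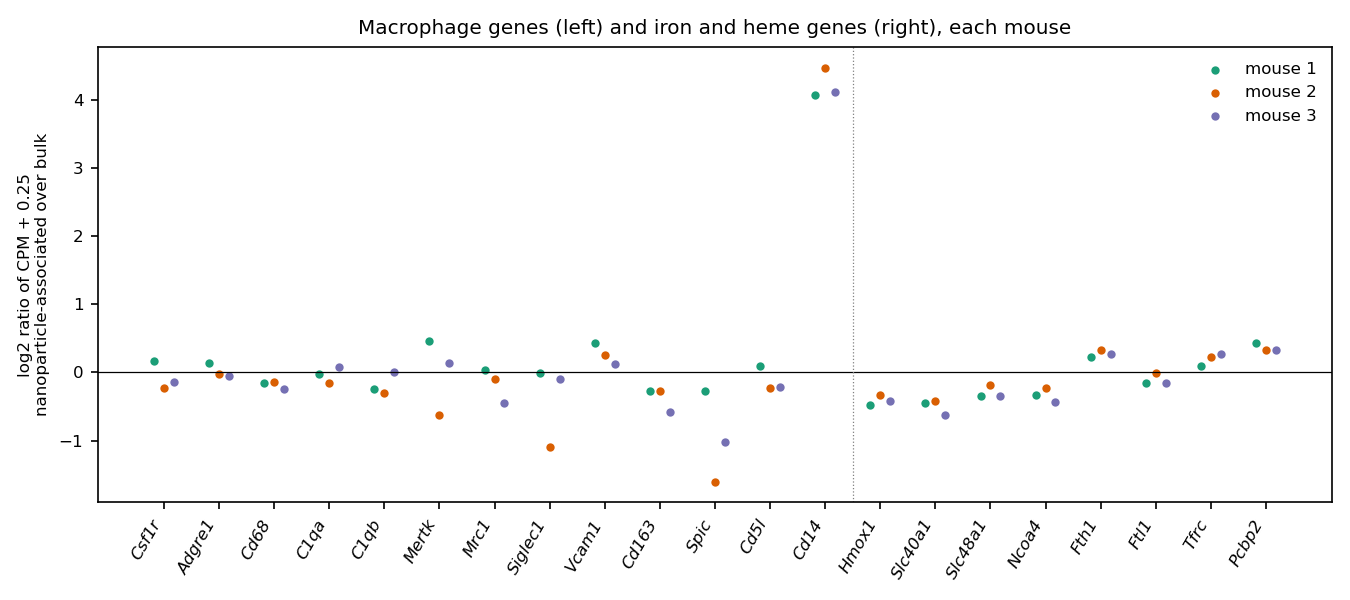
Log2 ratio of CPM + 0.25, nanoparticle-associated cells over bulk marrow of the same mouse, for 13 macrophage genes (left of the dotted line) and 8 iron and heme genes (right); each point is a mouse. Cd14 is the highest point in every mouse, Hmox1 and Slc40a1 lie below 0 in every mouse, and Csf1r and Adgre1 lie on either side of 0.

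Receptors for particle uptake were mostly near their bulk level. Of 22 tested scavenger and uptake receptor genes 3 rose and none fell. Clec7a, the beta-glucan receptor dectin-1, stood at 142, 131 and 102.04 CPM against 57.4, 66.5 and 51.9 CPM (1.08 ± 0.09, adjusted p = 0.00131). Olr1, a receptor for oxidized lipoprotein, stood at 66.8, 50.5 and 41.1 CPM against 24.3, 23.8 and 19.8 CPM (1.20 ± 0.10, adjusted p = 0.00139). Neither gene had overlapping groups. Stab1, a scavenger receptor of sinusoidal endothelium and macrophages, rose by 0.88 ± 0.16. Marco, a receptor for uncoated particles, rests on 25 counts in nanoparticle-associated cells and 40 in bulk marrow (-0.86 ± 0.57, adjusted p = 0.329), and Msr1, scavenger receptor A, was at 0.68 ± 0.20, adjusted p = 0.0592. Of 32 lysosome and phagocytosis genes 3 rose and 1 fell. The lysosomal protease gene Ctsl rose by 0.72 ± 0.07, while Ctsd (0.21 ± 0.07, adjusted p = 0.0723) and Ctsb (-0.03 ± 0.06, adjusted p = 0.758) were not called. Adjusted p-values rose to those in brackets without mouse 2 for Stab1 (0.0798), without mouse 3 for Stab1 (0.0519) and against PBS marrow for Stab1 (0.28). With the log2 value and adjusted p in brackets, the threshold was passed by Ctsd without mouse 1 (0.24, 0.0192) and Msr1 without mouse 2 (0.95, 0.0352). Higher and lower uptake receptor genes numbered 3 and 0 without the mouse term, 4 and 2 without mouse 1, 3 and 0 without mouse 2, 2 and 0 without mouse 3 and 2 and 1 against PBS marrow. Higher and lower lysosome genes numbered 1 and 0 without the mouse term, 5 and 1 without mouse 1, 1 and 0 without mouse 2, 2 and 0 without mouse 3 and 3 and 0 against PBS marrow.

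More monocyte genes fell than rose, and those that rose belong to the early response. Of 20 tested 2 rose, which were Nr4a1 and the early factor Klf4 (1.83 ± 0.10), and 5 fell. Ly6c2, the surface antigen of classical monocytes, was not called (0.04 ± 0.07, adjusted p = 0.687). Ccr2, their marrow exit receptor, stood at 79.8, 60.7 and 44.6 CPM against 131, 125 and 72.2 CPM (-0.82 ± 0.09, adjusted p = 0.00322), lower in 3 of 3 mice with overlapping groups. Irf8, a factor of monocyte and dendritic cell fate, fell (-0.50 ± 0.08, adjusted p = 0.0105). Calls were lost (adjusted p in brackets) without the mouse term for Ccr2 (0.0964) and Irf8 (0.145), without mouse 2 for Irf8 (0.0896) and against PBS marrow for Irf8 (0.0519). Higher and lower monocyte genes numbered 2 and 0 without the mouse term, 4 and 7 without mouse 1, 2 and 1 without mouse 2, 2 and 4 without mouse 3 and 2 and 2 against PBS marrow.

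Among genes of red cell precursors those of hemoglobin were lower. Hbb-bs, the adult beta globin, stood at 29539, 38377 and 47516 CPM against 47838, 53902 and 74554 CPM, lower in 3 of 3 mice (-0.62 ± 0.05, adjusted p = 0.00161). Hba-a1, an alpha globin (-0.60 ± 0.06), and Bpgm, a red cell glycolysis enzyme (-0.71 ± 0.08), also fell. Slc4a1, the band 3 anion exchanger, was not called (0.19 ± 0.06, adjusted p = 0.0664), and Trim58, a late erythroid ubiquitin ligase, rose by 0.52 ± 0.07. Of 28 erythroid genes 2 rose and 10 fell, with a median of -0.06. The near-identical globin copies share reads, so their separate counts are uncertain. No call was made (adjusted p in brackets) without the mouse term for Hbb-bs (0.138), Hba-a1 (0.145), Bpgm (0.101) and Trim58 (0.06), without mouse 2 for Trim58 (0.0703) and against PBS marrow for Hbb-bs (0.135) and Hba-a1 (0.0956). With the log2 value and adjusted p in brackets, the threshold was passed by Slc4a1 without mouse 1 (0.15, 0.0488). Higher and lower erythroid genes numbered 0 and 1 without the mouse term, 5 and 11 without mouse 1, 0 and 6 without mouse 2, 1 and 6 without mouse 3 and 1 and 2 against PBS marrow.

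More mature B cell genes fell than rose, and IgM heavy chain transcripts were higher. Of 17 tested 9 fell, against 8.29% of all tested genes, and 1 rose, with a median of -0.62. Cr2, a complement receptor of mature B cells, stood at 3.26, 1.53 and 2.201 CPM against 8.44, 5.76 and 6.22 CPM (-1.58 ± 0.21, adjusted p = 0.00642). Fcer2a, the low-affinity IgE receptor, stood at 5.77, 4.32 and 3.801 CPM against 15.03, 11.1 and 14.4 CPM (-1.55 ± 0.18, adjusted p = 0.00404). The groups overlapped for neither gene. Ms4a1, which encodes CD20 (-1.39 ± 0.15), and Ciita, the class II transactivator (-1.61 ± 0.29), fell too. Ighm, the IgM heavy chain, was the member that rose, at 4420.0, 5416 and 5446 CPM against 2604, 3619 and 3261 CPM (0.69 ± 0.06, adjusted p = 0.00125). The threshold was missed (adjusted p in brackets) without the mouse term for Ms4a1 (0.136) and Ciita (0.0532), without mouse 2 for Cr2 (0.058) and Ciita (0.0711) and against PBS marrow for Fcer2a (0.0618) and Ms4a1 (0.073). Higher and lower mature B cell genes numbered 1 and 2 without the mouse term, 1 and 13 without mouse 1, 1 and 3 without mouse 2, 1 and 7 without mouse 3 and 1 and 2 against PBS marrow.

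B cell precursor genes fell in 5 of 15 members, and none rose. Dntt, the terminal transferase of early lymphocytes (-0.77 ± 0.08, adjusted p = 0.00333), and Vpreb3, a pre-B cell protein (-1.22 ± 0.23, adjusted p = 0.0176), were among them. The list summed to 314 to 676 CPM in nanoparticle-associated cells and 363 to 747 CPM in bulk marrow. Of 15 plasma cell genes 3 rose and none fell, among them Igkc, the kappa light chain (0.55 ± 0.07, adjusted p = 0.00552), and Prdm1, a plasma cell factor that activated myeloid and T cells also express (1.44 ± 0.30, adjusted p = 0.0232). Adjusted p-values rose to those in brackets without the mouse term for Dntt (0.163), Vpreb3 (0.267) and Igkc (0.177), without mouse 2 for Igkc (0.0707) and Prdm1 (0.117) and against PBS marrow for Dntt (0.104), Vpreb3 (0.058) and Igkc (0.0581). Higher and lower B cell precursor genes numbered 0 and 0 without the mouse term, 0 and 9 without mouse 1, 0 and 2 without mouse 2, 0 and 2 without mouse 3 and 0 and 1 against PBS marrow. Higher and lower plasma cell genes numbered 1 and 0 without the mouse term, 3 and 0 without mouse 1, 0 and 0 without mouse 2, 6 and 0 without mouse 3 and 2 and 0 against PBS marrow.

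Natural killer cell genes changed in both directions. Of 14 tested natural killer and cytotoxic genes 3 rose and 4 fell. Ncr1, the activating receptor NKp46, stood at 1.52, 1.17 and 0.60 CPM against 9.29, 3.89 and 4.297 CPM (-2.37 ± 0.31, adjusted p = 0.0055), without overlap. Klrb1c, which encodes NK1.1, was also lower (-1.89 ± 0.31). Klrk1, which encodes NKG2D, is not in this list but is among the 12 largest falls (-1.70 ± 0.21). Gzmb, a granzyme, rose by 1.78 ± 0.35, Fasl, a death ligand, by 1.78 ± 0.35 and Ifng by 3.46 ± 0.71, the last on 9 bulk counts (ratio 8.94, exact 95% interval 4.46 to 20.3). Calls were lost (adjusted p in brackets) without mouse 1 for Fasl (0.0503), without mouse 2 for Klrb1c (0.0813), Gzmb (0.13), Fasl (0.138) and Ifng (0.057) and without mouse 3 for Gzmb (0.0779). Higher and lower natural killer and cytotoxic genes numbered 3 and 4 without the mouse term, 2 and 4 without mouse 1, 0 and 1 without mouse 2, 2 and 2 without mouse 3 and 3 and 4 against PBS marrow.

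Of 16 T cell genes 3 rose and 3 fell (18.8% and 18.8%, against 11.7% and 8.29% of all tested genes). The receptor chains Cd3g (-1.20 ± 0.21, adjusted p = 0.0133) and Cd3e (-0.91 ± 0.22, adjusted p = 0.0329) were lower, and Ccr7, a homing receptor that mature dendritic cells share, was higher (1.01 ± 0.23, adjusted p = 0.0297). No call was made (adjusted p in brackets) without the mouse term for Cd3e (0.0509) and Ccr7 (0.112), without mouse 1 for Cd3e (0.0596), without mouse 2 for Cd3g (0.0918), Cd3e (0.176) and Ccr7 (0.127), without mouse 3 for Cd3e (0.112) and against PBS marrow for Cd3e (0.0558) and Ccr7 (0.066). Higher and lower T cell genes numbered 0 and 1 without the mouse term, 2 and 3 without mouse 1, 0 and 0 without mouse 2, 1 and 1 without mouse 3 and 0 and 3 against PBS marrow.

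Genes of the marrow stroma were prominent among the largest falls. Cxcl12, the chemokine that holds stem cells and neutrophils in the marrow, stood at 29.1, 56.7 and 66.4 CPM against 220.2, 238 and 174 CPM (-2.12 ± 0.27, adjusted p = 0.0052). Lepr, the receptor that defines perivascular stromal cells, stood at 2.12, 5.04 and 5.202 CPM against 20.4, 20.9 and 14.4 CPM (-2.23 ± 0.33, adjusted p = 0.00845). PBS marrow held 106.1 to 293 CPM of Cxcl12 and 11.1 to 24.5 CPM of Lepr. In both genes every nanoparticle-associated library lay below every bulk library, and mouse 1 was lowest. Kitl, the stem cell factor (-1.40 ± 0.18), Adipoq, the adiponectin of these cells and of fat (-1.59 ± 0.28), and Ibsp, bone sialoprotein (-1.63 ± 0.36), fell too. Spp1, osteopontin, which macrophages also make, rose by 0.87 ± 0.12. The threshold was missed (adjusted p in brackets) without mouse 2 for Kitl (0.0554) and Ibsp (0.0633) and against PBS marrow for Adipoq (0.0956), Ibsp (0.0522) and Spp1 (0.0864).

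Of 21 tested stromal and osteolineage genes 8 fell and 1 rose, with a median of -0.90, and their summed level was 326 to 349.6 CPM against 551 to 553 CPM. Genes of secreted and matrix proteins among the 12 largest falls were Igfbp5 (-1.96 ± 0.18), Cxcl14 (-2.02 ± 0.29), Ltbp2 (-2.18 ± 0.32), Esm1 (-2.02 ± 0.32) and Fstl1 (-1.65 ± 0.18). Scn2b, a sodium channel subunit (-1.91 ± 0.31), and Aldh1a2, a retinoic acid-making enzyme (-1.82 ± 0.33), belong to the same 12. So do Tlr1 (-1.90 ± 0.24, adjusted p = 0.0053) and Trim21 (-1.78 ± 0.20, adjusted p = 0.00376), which are not stromal list members. Igfbp5, which binds insulin-like growth factors, stood at 13.9, 18.01 and 23.5 CPM against 66.2, 85.05 and 60.8 CPM (adjusted p = 0.002), without overlap. Adjusted p-values rose to those in brackets without mouse 2 for Esm1 (0.0623), Scn2b (0.0588) and Aldh1a2 (0.0981). Higher and lower stromal genes numbered 1 and 8 without the mouse term, 1 and 12 without mouse 1, 1 and 4 without mouse 2, 1 and 7 without mouse 3 and 0 and 7 against PBS marrow.

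Of 21 tested endothelial genes 4 rose and 1 fell, with a median of 0.32. Plvap, the protein of endothelial fenestrae, stood at 10.8, 14.1 and 14.5 CPM against 7.77, 8.51 and 7.41 CPM (0.72 ± 0.16, adjusted p = 0.026). Kdr, a receptor for vascular endothelial growth factor, rose by 0.74 ± 0.16, and Lyve1, the hyaluronan receptor, fell (-1.05 ± 0.23, adjusted p = 0.025). Cdh5, the endothelial cadherin, was not called (0.32 ± 0.16, adjusted p = 0.212). Calls were lost (adjusted p in brackets) without the mouse term for Kdr (0.169) and Lyve1 (0.12), without mouse 1 for Lyve1 (0.0642), without mouse 2 for Plvap (0.147), Kdr (0.0892) and Lyve1 (0.152), without mouse 3 for Plvap (0.103) and Kdr (0.0861) and against PBS marrow for Plvap (0.272), Kdr (0.361) and Lyve1 (0.103). Higher and lower endothelial genes numbered 2 and 0 without the mouse term, 7 and 0 without mouse 1, 0 and 0 without mouse 2, 0 and 1 without mouse 3 and 0 and 0 against PBS marrow.

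The calls of megakaryocyte genes varied with the mice included. Of 22 tested 4 rose and none fell. Thbs1, thrombospondin, which activated myeloid cells also make, stood at 1209.96, 943 and 809.9 CPM against 209.9, 203 and 188 CPM (2.28 ± 0.09, adjusted p = 1.80e-04), without overlap. Pf4, a platelet chemokine, stood at 68.3, 166 and 175 CPM against 124, 129 and 93.4 CPM (0.14 ± 0.31, adjusted p = 0.778), so that nanoparticle-associated cells lay below bulk marrow in mouse 1 and above it in mice 2 and 3. Itga2b, the platelet integrin, stood at 86.9, 204 and 223 CPM against 163, 185 and 144 CPM (-0.04 ± 0.27, adjusted p = 0.935). With the log2 value and adjusted p in brackets, the threshold was passed by Pf4 without mouse 1 (0.63, 0.00594) and Itga2b without mouse 1 (0.38, 0.0291). Higher and lower megakaryocyte genes numbered 2 and 0 without the mouse term, 11 and 0 without mouse 1, 1 and 0 without mouse 2, 2 and 0 without mouse 3 and 1 and 0 against PBS marrow.

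More interferon-stimulated genes fell than rose. Of 29 tested 8 fell and 1 rose, with a median of -0.43. Trim30a, an interferon-induced ubiquitin ligase, stood at 21.3, 13.2 and 12.7 CPM against 40.2, 33.8 and 23.6 CPM (-1.06 ± 0.12, adjusted p = 0.00378). Stat2, a subunit of the interferon-activated factor (-0.92 ± 0.13), and Mx1, an antiviral GTPase (-1.45 ± 0.40, adjusted p = 0.0494), fell. Isg15 (0.08 ± 0.15, adjusted p = 0.728) and Irf7 (0.01 ± 0.10, adjusted p = 0.942), core members of the program, were not called. Cxcl10, a chemokine that NF-kB also induces, was the member that rose (2.93 ± 0.38, adjusted p = 0.00573). No call was made (adjusted p in brackets) without the mouse term for Mx1 (0.0513), without mouse 1 for Mx1 (0.0983) and without mouse 2 for Mx1 (0.257). Higher and lower interferon-stimulated genes numbered 1 and 2 without the mouse term, 1 and 7 without mouse 1, 1 and 2 without mouse 2, 1 and 6 without mouse 3 and 1 and 4 against PBS marrow.

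Stress and metabolic genes rose in part. Slc7a11, the cystine transporter, stood at 53.1, 75.7 and 62.2 CPM against 4.22, 4.22 and 4.11 CPM (3.92 ± 0.12, adjusted p = 6.12e-05), without overlap, in an antioxidant and ferroptosis list of which 6 of 22 rose and 1 fell. Prdx6, a peroxiredoxin, rose by 0.62 ± 0.06. Of 20 heat shock genes 8 rose and none fell. Hspa1a and Hspa1b, inducible copies of HSP70 that share reads and so are uncertain apart, rose by 3.19 ± 0.49 and 2.85 ± 0.22, Bag3, their co-chaperone, by 0.94 ± 0.11 and Hspa5, the chaperone of the endoplasmic reticulum, by 0.62 ± 0.06. Of 20 hypoxia and glycolysis genes 7 rose and none fell, among them the lactate exporter Slc16a3 (1.39 ± 0.07), the growth factor Vegfa (1.31 ± 0.08) and the glucose transporter Slc2a1 (1.08 ± 0.12). Higher and lower antioxidant genes numbered 3 and 0 without the mouse term, 8 and 1 without mouse 1, 2 and 0 without mouse 2, 4 and 0 without mouse 3 and 3 and 0 against PBS marrow. Higher and lower heat shock genes numbered 4 and 0 without the mouse term, 11 and 0 without mouse 1, 4 and 0 without mouse 2, 5 and 0 without mouse 3 and 6 and 0 against PBS marrow. Higher and lower hypoxia genes numbered 3 and 0 without the mouse term, 8 and 0 without mouse 1, 3 and 0 without mouse 2, 4 and 0 without mouse 3 and 3 and 0 against PBS marrow.

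The same contrast exists in spleen, liver and tumor of these mice, and a single fit of 24 libraries placed marrow beside them. Marrow had the smallest changes of the 4 organs: the median absolute log2 fold change over 17281 genes was 0.28 in marrow, 0.63 in spleen, 1.25 in liver and 0.61 in tumor. In that fit 2.97% of genes were called in marrow (1.93% higher, 1.05% lower), 39.4% in spleen, 62.7% in liver and 38.3% in tumor. Subtracting from each gene's marrow change the average of its changes in spleen, liver and tumor, and testing that difference, 1603 (9.28%) were higher and 1693 (9.8%) lower in marrow. Without mouse 1 there were 1915 such genes, 230 without mouse 2 and 608 without mouse 3. Against spleen alone 991 (5.73%) differed, 363 (2.1%) higher and 628 (3.63%) lower in marrow. Bulk tissue of these organs holds other cells than bulk marrow, and its part in the differences was not tested. The mitochondrial genome held 48.2, 57.2 and 56.1% of counts in nanoparticle-associated cells of liver, against 5.80, 5.67 and 7.06% in bulk liver. In bulk tumor it held 19.5, 8.33 and 3.97%, and in the marrow libraries of these mice 1.80 to 2.40%. The part of this composition in the differences was not tested either.

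All 30 immediate early genes that rose in the fit of marrow alone also rose in spleen, liver and tumor in the fit of 24 libraries, where 19.4%, 32.7% and 16.6% of all genes did. In the latter fit 26 of 32 were called higher in marrow. The list's median was 2.33 in marrow, 3.38 in spleen, 6.40 in liver and 2.76 in tumor. The change was lower in marrow for 19 of 32 members and higher for 0, against the 9.8% and 9.28% of all genes. For Fosb the difference was -0.66 ± 0.55 (adjusted p = 0.451), from changes of 8.58 ± 0.45 in marrow, 7.27 ± 0.39 in spleen, 11.07 ± 0.48 in liver and 9.39 ± 0.43 in tumor. Tnf, in contrast, changed less in marrow, with a difference of -3.95 ± 0.28 (adjusted p = 5.85e-05). Macrophage genes had medians of -0.05 in marrow, -0.59 in spleen, 0.74 in liver and -1.41 in tumor, and 3 of 20 changed to a higher and 1 to a lower level in marrow than in the mean of the others. Stromal genes had medians of -1.01 in marrow, -1.02 in spleen, 0.94 in liver and -0.40 in tumor.

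**Figure D5:**
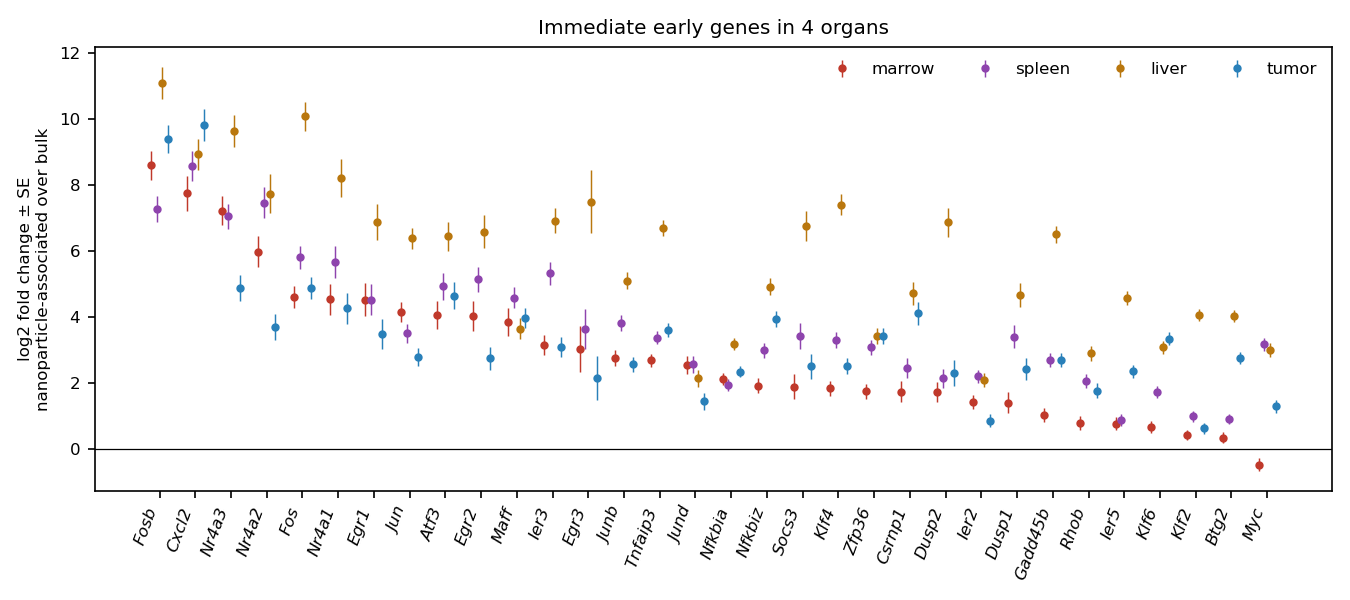
Log2 fold change ± SE of nanoparticle-associated cells over bulk tissue in the fit of 24 libraries, for 32 immediate early genes ordered by their change in marrow; colors give the organ. Liver points lie highest for most genes, and Myc is below 0 in marrow and above 0 in the other 3 organs.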

How the data were processed

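RNA-seq libraries of nanoparticle-associated marrow cells and bulk marrow were compared by mouse. The deposited values are RSEM expected counts per gene. Per the submitters' processing notes, the authors used FastQC 0.11.9, cutadapt 3.5, STAR 2.7.9a and RSEM 1.3.1 with mm10; no source used here names the annotation release or strand setting. Gene symbols and positions came from GENCODE M21 (55227 of 55487 genes matched).

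Counts were rounded to whole numbers and genes kept by filterByExpr (minimum count 10). TMM scaling and edgeR 4.0.16 quasi-likelihood tests (R 4.3.3) followed, with mouse as a block and Benjamini-Hochberg adjustment at 0.05. SE is the absolute log2 fold change over the square root of F. CPM were TMM-scaled over 9 marrow libraries of 10410280 to 15161776 counts. Members and lists were chosen with earlier results of these data known. Genes named are the 12 largest called changes per direction (same direction in 3 mice, no overlap, mean log2 CPM of at least 2) and, per list, from its first 2 members and up to 4 called members per direction; Cxcr2, Btg2 and other uncalled list members were added for context, and some list members are not reported here by name. The 24-library fit blocked on mouse within organ. Pairing comes from the labels, which give the same animal to both fractions. Deviations of the paired libraries correlated at -0.08, 0.40 and -0.07, and those of libraries of different mice at -0.35 to 0.28. The 0.28 was that of nanoparticle-associated cells of mouse 1 with bulk marrow of mouse 3. For mice 1 and 3 the deviations therefore do not show the pairing that the labels give, and the reason was not tested. Scripts were tested on simulated data, and alternatives included DESeq2 1.42.0.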

Additional observations from a re-analysis of the deposited data

Results flagged for a closer look

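For 12 genes the marrow change differed from the mean change in spleen, liver and tumor by the test of that difference (edgeR, Benjamini-Hochberg adjustment over 17281 genes), the 6 largest in each direction among genes whose log2 CPM averaged 2 or more over the 6 marrow libraries; values are log2. Higher in marrow were the following. Clstn3, a calsyntenin, differed by 4.04 ± 0.51 (adjusted p = 9.36e-04), from 0.43 in marrow against 0.51, -3.50 and -7.87 in spleen, liver and tumor. Abcd2, a peroxisomal fatty acid transporter, differed by 3.51 ± 0.59 (adjusted p = 0.00312), from 0.30 in marrow against -0.69, -4.63 and -4.32 in spleen, liver and tumor. Car3, a carbonic anhydrase of fat, liver and muscle, differed by 3.34 ± 0.73 (adjusted p = 0.0103), from -0.70 in marrow against -1.89, -4.22 and -5.99 in spleen, liver and tumor. Clec4n, the C-type lectin receptor dectin-2, differed by 3.03 ± 0.51 (adjusted p = 0.00312), from 2.40 in marrow against -0.84, 0.63 and -1.67 in spleen, liver and tumor. Ndrg2, a differentiation gene, differed by 2.88 ± 0.85 (adjusted p = 0.0351), from 0.53 in marrow against -0.53, -4.03 and -2.46 in spleen, liver and tumor. Aldh1a7, an aldehyde dehydrogenase, differed by 2.85 ± 0.57 (adjusted p = 0.00685), from -0.03 in marrow against -0.17, -4.19 and -4.29 in spleen, liver and tumor. All but Clec4n were lower in nanoparticle-associated cells than in bulk tissue of both liver and tumor.

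Lower in marrow were the following. Esm1, a proteoglycan secreted by endothelium, differed by -4.37 ± 0.58 (adjusted p = 0.00125), from -2.02 in marrow against 1.25, 3.63 and 2.17 in spleen, liver and tumor. Prok2, the secreted peptide prokineticin 2, differed by -4.22 ± 1.21 (adjusted p = 0.0464), from 0.45 in marrow against 4.85, 7.83 and 1.33 in spleen, liver and tumor. Hspa1b, an inducible HSP70 copy, differed by -4.02 ± 0.52 (adjusted p = 0.00104), from 2.86 in marrow against 7.33, 8.65 and 4.66 in spleen, liver and tumor. Tnf, the inflammatory cytokine, differed by -3.95 ± 0.28 (adjusted p = 5.85e-05), from 1.24 in marrow against 2.76, 7.81 and 5.00 in spleen, liver and tumor. Hba-a2, an alpha globin, differed by -3.71 ± 0.31 (adjusted p = 2.40e-04), from -0.60 in marrow against 0.69, 2.65 and 6.00 in spleen, liver and tumor. Sh2d5, an SH2 domain gene, differed by -3.71 ± 0.47 (adjusted p = 0.00155), from 0.07 in marrow against 1.37, 6.48 and 3.49 in spleen, liver and tumor. Hspa1b and Hba-a2 have near-identical copies that share reads. Adjusted p-values are in brackets: without mouse 2 the difference was not called for Abcd2 (0.084), Car3 (0.148), Clec4n (0.0711), Ndrg2 (0.187), Aldh1a7 (0.1), Prok2 (0.185), Hspa1b (0.0538) and Sh2d5 (0.0573), and without mouse 3 for Ndrg2 (0.111) and Prok2 (0.091). Against spleen alone it was not called for Clstn3 (0.974), Abcd2 (0.462), Car3 (0.452), Ndrg2 (0.593), Aldh1a7 (0.958) and Sh2d5 (0.0933). The cause was not tested.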

How the results depend on the processing

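The 2719 genes called in marrow became 1304 with PBS marrow as the reference and 514 with the spread estimated over 24 libraries, and leaving out each mouse gave 555 to 3567. Without the mouse block, that is without the pairing, 1044 were called, of which 1042 were among the 2719. Of the genes called with the block and tested against PBS marrow (2713), 1169 were called in the same direction and 0 in the opposite one. Both comparisons use the same nanoparticle-associated libraries, so their directions are not independent. DESeq2 called 1907. The share of higher genes among those called was 58.6%, and 68.2% with DESeq2 and 73.2% without mouse 2. For the difference between organs, 3296 genes became 991 against spleen alone and 230 to 1915 when each mouse was left out. The cause of these moves was not tested. Of 142 genes given with values, the call was lost for 25 without the mouse block, 8 with DESeq2, 5, 41 and 15 without mice 1, 2 and 3, 28 against PBS marrow and 47 with the spread of 24 libraries. The 142 include genes not called in the main fit, which have no call to lose, so the lost share of called genes is larger. DESeq2 gave values for 140 of them, and the fits without mouse 1 and against PBS marrow for 141. Those lost with DESeq2 were Aif1, Ccl5, Cd3e, Fasl, Kdr, Lyve1, Mx1 and Plvap, and those lost with the spread of 24 libraries were Adipoq, Aif1, Bpgm, Ccl5, Ccr2, Ccr7, Cd3e, Cd3g, Cr2, Dntt, Fasl, Fstl1, Fth1, H2-Oa, Hba-a1, Hbb-bs, Hmox1, Hspa5, Ibsp, Ifng, Ighm, Igkc, Insig1, Irf8, Kdr, Klrk1, Ly6g, Lyve1, Mpo, Mx1, Myc, Mylip, Ncoa4, Pcbp2, Plk1, Plvap, Prdx6, S100a8, Scn2b, Slc40a1, Spp1, Stab1, Stat2, Steap4, Trim30a, Trim58 and Vpreb3. With DESeq2's size factors none was lost or turned. The following genes took the opposite sign, with the log2 value in brackets. With a minimum count of 50 the sign turned for Adgre1 (-0.0031), Camp (-0.0245) and Irf7 (-0.0141). Against PBS marrow the sign turned for Adgre1 (-0.0516), Camp (-0.0942), Ctsb (0.0679), Itga2b (0.0561) and Ltf (-0.0767). With mitochondrial, hemoglobin and ribosomal protein genes left out the sign turned for Camp (-0.01). Without the mouse term the sign turned for Itga2b (0.0614). Against spleen alone (its difference between organs) the sign turned for Clstn3 (-0.0873). Leaving out each mouse gave ranges on either side of 0 for Adgre1 (-0.0333 to 0.052), Camp (-0.0496 to 0.0491), Ctsb (-0.0574 to 0.0019), Irf7 (-0.0877 to 0.0864), Isg15 (-0.12 to 0.21), Itga2b (-0.38 to 0.38), Ly6c2 (-0.021 to 0.10) and Pf4 (-0.25 to 0.63). Depth limits genes under about 0.29 CPM, and with 3 mice and 2 residual degrees of freedom a call can rest on 1 mouse.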

Other observations

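Of 15 tested class II antigen presentation genes 2 rose and 5 fell (13.3% and 33.3%, against 11.7% and 8.29% of all tested genes). The co-stimulatory ligands Cd80 and Cd86 rose, Cd86 at 34.1, 19.004 and 19.4 CPM against 9.12, 5.76 and 6.95 CPM (1.70 ± 0.14, adjusted p = 0.00123) and Cd80 by 1.76 ± 0.25, while H2-Oa, a modulator of peptide loading in B cells, fell (-1.02 ± 0.18, adjusted p = 0.0143). Of 13 conventional dendritic cell genes 2 rose and 3 fell: Cd83, a maturation marker, rose by 1.46 ± 0.24 and Clec9a, the dead-cell receptor of the cross-presenting subset, fell (-1.77 ± 0.34, adjusted p = 0.018). Of 32 cell cycle genes 2 rose and 5 fell, among them Plk1, a mitotic kinase (-0.56 ± 0.07, adjusted p = 0.00422). Of 24 lipid and cholesterol genes 6 rose and 1 fell, with Insig1, the sterol sensor partner (0.62 ± 0.09, adjusted p = 0.00923), and Mylip, which degrades the LDL receptor (0.47 ± 0.08, adjusted p = 0.0137), among those higher. The threshold was missed (adjusted p in brackets) without the mouse term for Insig1 (0.0597), without mouse 2 for Cd80 (0.0512), H2-Oa (0.0899), Clec9a (0.0636), Insig1 (0.0739) and Mylip (0.123), without mouse 3 for Clec9a (0.0638) and against PBS marrow for Insig1 (0.051). Higher and lower class II genes numbered 2 and 1 without the mouse term, 2 and 6 without mouse 1, 1 and 0 without mouse 2, 2 and 2 without mouse 3 and 2 and 2 against PBS marrow. Higher and lower dendritic cell genes numbered 1 and 1 without the mouse term, 2 and 3 without mouse 1, 1 and 0 without mouse 2, 2 and 0 without mouse 3 and 1 and 2 against PBS marrow. Higher and lower cell cycle genes numbered 0 and 1 without the mouse term, 6 and 8 without mouse 1, 0 and 1 without mouse 2, 0 and 3 without mouse 3 and 0 and 2 against PBS marrow. Higher and lower lipid genes numbered 1 and 0 without the mouse term, 6 and 3 without mouse 1, 0 and 0 without mouse 2, 3 and 1 without mouse 3 and 1 and 0 against PBS marrow.

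Genes of the integrated stress response and of NF-kB signaling were looked up after their values were seen, beside the rises of Trib3, Chac1 and Slc7a11. Atf4, the factor that drives amino acid stress genes, stood at 416, 474 and 506 CPM against 170.4, 196 and 223 CPM (1.24 ± 0.06, adjusted p = 2.28e-04), and its target Ddit3 at 52.3, 73.1 and 107 CPM against 15.1, 18.5 and 19.6 CPM (2.08 ± 0.13, adjusted p = 4.72e-04). For both the groups did not overlap. Sesn2 (1.58 ± 0.07), Herpud1 (1.49 ± 0.10), Slc3a2, the heavy chain partner of Slc7a11 (1.16 ± 0.06), and Ddit4 (2.85 ± 0.20) also rose. Relb and Nfkb2, subunits of NF-kB, rose by 2.87 ± 0.09 and 1.92 ± 0.09, and the inhibitors Nfkbia and Tnfaip3 by 2.12 ± 0.13 and 2.69 ± 0.11.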
